A study of Rattus norvegicus with 6 samples.

Results

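The 10 genes described here encode cytokines of the interleukin 6 family and the proteins that carry their signal: the ligands Il6, Il11 and Lif, the receptor chains Il6st, Osmr and Lifr, the kinases Jak1 and Jak2, the transcription factor Stat3 and the inhibitor Socs3. They were taken by gene symbol from a table of 19825 rat genes, in which all 10 were found and all 10 passed the filter on low counts. RNA was sequenced from H9C2 cells, a myoblast line made from the hearts of rat embryos, which the labels name cardiomyocytes. In 3 libraries (siPUM2) the RNA-binding protein PUM2 had been knocked down with transfected siRNA, and 3 controls (NC) are labelled as transfected with empty vector. The labels give no time after transfection, no agent other than these, and no non-targeting siRNA for the controls. Whether replicates were separate cultures is not stated either, so p-values here reflect the spread among these libraries, which may be technical.

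Cytokines of this family signal through a shared receptor chain, gp130, the product of Il6st. Interleukin 6 and interleukin 11 first bind receptors of their own, LIF and cardiotrophin 1 bring gp130 together with the LIF receptor, and oncostatin M brings it together with the oncostatin M receptor. Janus kinases bound to the receptors then phosphorylate STAT3, which enters the nucleus and switches on genes that include Socs3, whose product blocks gp130 and the kinases in a feedback loop. In the heart the pathway is known for cardiomyocyte growth and survival, and interleukin 11 and interleukin 6 are studied for their part in fibrosis.

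The libraries held 27704702 to 30579237 counts, so 1 count was worth 0.0326 to 0.0360 CPM (counts scaled to a common library size with TMM factors). Pum2 itself stood at 223, 228 and 225 CPM in NC and 127, 126 and 120 CPM in siPUM2. Its mean fell 1.82-fold (adjusted p = 9.23e-19, edgeR). Of 5 myoblast markers measured, of 8 listed, the NC means were 215 CPM for Cdh15, 81.3 for Myod1, 27.9 for Des, 20.1 for Myog and 0.303 for Chrna1. Of 9 cardiomyocyte markers measured, of 10 listed, they were 298 CPM for Tnnt2, 19.7 for Nkx2-5, 10.4 for Gata4 and 1.86 for Nppb, while Myh6, Myh7, Tnni3, Actn2 and Ryr2 were each under 1 CPM in every library. The 5 leukocyte markers measured, of 10 listed, came to 36.9 to 37.7 CPM in NC and 38.6 to 40.9 CPM in siPUM2, nearly all of it from Cd14, with Cd68, Csf1r, Itgam and Lyz2 each under 1 CPM. The 7 endothelial markers measured, of 8 listed, summed to at most 2.64 CPM in any library.

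In siPUM2 the shared receptor chain Il6st and the LIF receptor Lifr rose by 14.8% and 18.7%, and the feedback inhibitor Socs3 fell by 22.9%. Stat3 passed the threshold with a rise of 5.50%, a call that most other ways of processing the counts did not keep. The ligands Il6, Il11 and Lif, the receptor Osmr and the kinases Jak1 and Jak2 were not called. Calls required an adjusted p below 0.05 from the quasi-likelihood test of edgeR, with Benjamini-Hochberg adjustment over 12985 genes. By that rule 3 of the 10 members were higher (Il6st, Lifr and Stat3) and 1 was lower (Socs3), beside 28.4% of all genes tested, 15.1% higher and 13.3% lower. The members' median log2 fold change was 0.08, beside 0.001 for all genes tested, and 4 of 10 called is a small count that is not read as particular to these genes.

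**Figure D1:**
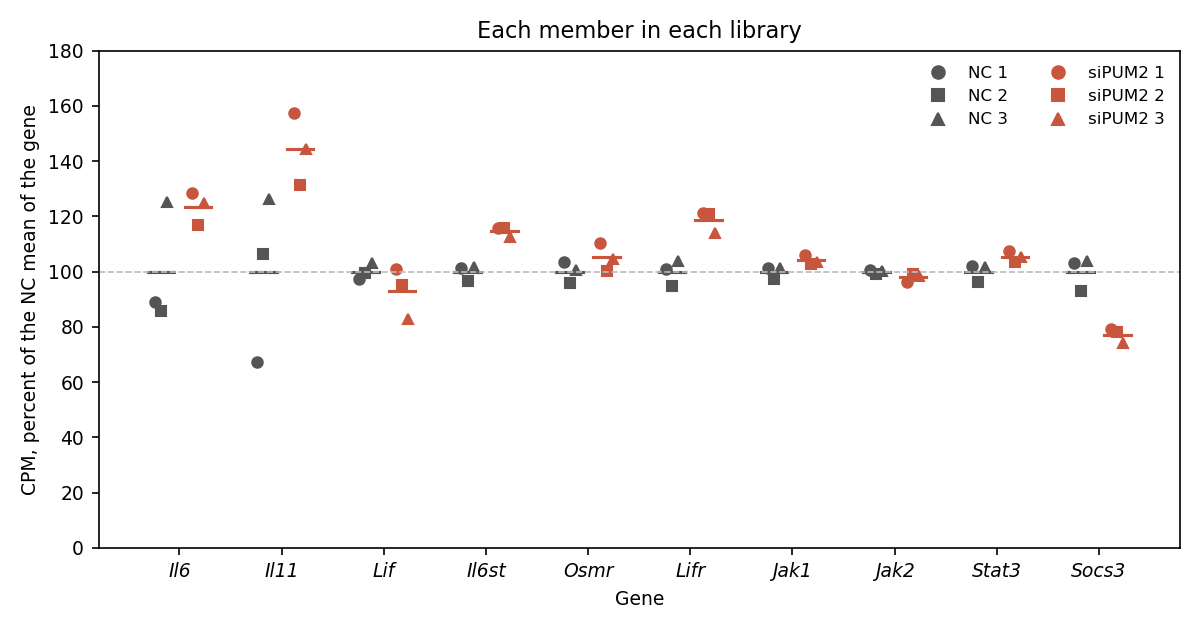
Level of each gene in each of the 6 libraries, in CPM as a percent of that gene's NC mean (y axis), with NC in grey, siPUM2 in red, symbols for the replicate numbers and a bar at each group mean. Il6st, Lifr and Socs3 sit apart by group, with Socs3 at 74.2% to 79.1% in siPUM2, whereas Il6 in NC 3 lies at 125% among the siPUM2 values.

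Il6, on chromosome 4 of the build mRatBN7.2, encodes interleukin 6. The libraries NC 1, 2 and 3 gave 3.65, 3.51 and 5.12 CPM, and siPUM2 1, 2 and 3 gave 5.27, 4.79 and 5.12 CPM, from 102 to 157 counts a library. The groups overlapped, because NC 3 stood with the siPUM2 libraries while NC 1 and NC 2 lay below all of them. The mean went from 4.09 ± 0.891 to 5.06 ± 0.244 CPM (SD, n = 3 each), a log2 fold change of 0.30 ± 0.142 (SE) that was not called (adjusted p = 0.116, edgeR). Without NC 3, the highest control, the log2 fold change was 0.50 with an adjusted p of 0.0168 (edgeR). It was 0.23 without NC 1 and 0.20 without NC 2, and not called (adjusted p = 0.337 and 0.406, edgeR). Leaving out a siPUM2 library gave no call either (adjusted p = 0.144 to 0.249, edgeR). The 95% interval with all libraries ran from a rise of 0.763% to one of 50.7%.

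Il11, on chromosome 1, encodes interleukin 11 and was the scarcest of the 10. Its counts were 17, 29 and 35 in NC and 40, 33 and 38 in siPUM2, which is 0.608, 0.961 and 1.14 CPM against 1.42, 1.19 and 1.31 CPM. All siPUM2 libraries stood above all NC libraries, though siPUM2 2 and NC 3 lay close together. The log2 fold change of 0.52 ± 0.269 (SE) was not called (adjusted p = 0.157, edgeR), and its 95% interval, from -0.03 to 1.07, holds both no change and a doubling. Without NC 1, the library with 17 counts, it was 0.31, and without the other libraries in turn it was 0.45 to 0.72. At this depth such a rise could not be told from none.

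Lif, on chromosome 14, encodes leukemia inhibitory factor, the most abundant of the 3 cytokines in counts. It stood at 23.3, 23.8 and 24.7 CPM in NC and at 24.1, 22.8 and 19.9 CPM in siPUM2. The groups overlapped, and siPUM2 3 was the lowest library. The log2 fold change of -0.10 ± 0.0653 (SE) was not called (adjusted p = 0.249, edgeR), with a 95% interval from -0.24 to 0.03. It was -0.03 without siPUM2 3 and -0.17 without siPUM2 1.

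The stretches upstream of the RefSeq gene starts are shown for the members in which a searched motif was found, since the cytokine genes of this family are known for promoters that respond to inflammatory and stress signals. They come from RefSeq sequences of the build GRCr8, which is not the build of the count table. Windows from 250 bases before to 50 after the start were held for 8 of the 10 members, all but Lif and Jak1. Both strands were searched for the cAMP response element, spelled TGACGTCA. The NF-kB motif searched was GGANTTTCC. The AP-1 motif was TGANTCA, and the STAT motif was TTCNNNGAA. Each stretch runs 5′ to 3′ over the 180 bases before the start, with matches in capitals.
Il6 (GRCr8 chr4:5894576-5894755, minus strand): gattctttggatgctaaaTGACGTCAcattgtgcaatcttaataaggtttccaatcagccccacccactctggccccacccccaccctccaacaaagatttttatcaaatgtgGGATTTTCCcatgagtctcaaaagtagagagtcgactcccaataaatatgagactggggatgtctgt
Il11 (GRCr8 chr1:78098442-78098621, plus strand): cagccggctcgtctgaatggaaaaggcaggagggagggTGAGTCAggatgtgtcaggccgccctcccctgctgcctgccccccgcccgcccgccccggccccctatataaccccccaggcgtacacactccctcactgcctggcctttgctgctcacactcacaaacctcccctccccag
Osmr (GRCr8 chr2:57688562-57688741, minus strand): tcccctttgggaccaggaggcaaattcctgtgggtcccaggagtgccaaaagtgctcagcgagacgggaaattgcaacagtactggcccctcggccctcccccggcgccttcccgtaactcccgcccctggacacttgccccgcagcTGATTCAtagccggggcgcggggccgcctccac
In Il6 the capitals mark a cAMP response element whose first base lies at -162 and an NF-kB site at -67, counted from the gene start. In Il11 and Osmr they mark AP-1 sites, at -142 and -33. Of 33469 windows of the same length, 1.83% held the cAMP response element, 1.28% the NF-kB site, 7.33% an AP-1 site and 8.87% a STAT site. No other match was found in the windows of the 8 members, so the windows of Il6st, Lifr, Stat3 and Socs3 held none of these letters. Sequence outside the windows was not searched. The windows of Il6st, Lifr and Socs3 run into an ATG soon after the start. Whether the starts used lie at the promoters was not tested, so a window without a match does not show a promoter without one. These matches describe letters and are no measure of binding.

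Il6st, on chromosome 2, encodes gp130 and was the most abundant member. It stood at 444, 424 and 446 CPM in NC and at 508, 508 and 493 CPM in siPUM2, from 12417 to 14360 counts a library. Every siPUM2 library lay above every NC library. The mean rose from 438 ± 12.3 to 503 ± 8.54 CPM (SD, n = 3 each), 1.15-fold, with a log2 fold change of 0.20 ± 0.0261 (SE) and an adjusted p of 9.55e-07 (edgeR). Of the 1961 genes called higher, 58.7% had a larger change. The annotation of GRCr8 places a long noncoding RNA over Il6st, and whether the counting used strand is not given in the sources used here.

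Lifr, also on chromosome 2, encodes the LIF receptor chain that pairs with gp130. It stood at 39.8, 37.4 and 40.9 CPM in NC and at 47.8, 47.6 and 45.0 CPM in siPUM2. The groups did not overlap. The mean rose from 39.4 ± 1.80 to 46.8 ± 1.57 CPM, 1.19-fold, with a log2 fold change of 0.25 ± 0.0526 (SE) and an adjusted p of 0.000620 (edgeR). The 95% interval of the rise ran from 10.2% to 27.9%. The call was lost on log2(FPKM + 1) with no filter on low values (adjusted p = 0.0576), a setting that called 2246 genes in all.

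Osmr encodes the oncostatin M receptor chain and lies beside Lifr on chromosome 2, with 1 pseudogene and no protein-coding gene annotated between the starts of these genes. Its level was 40.0, 37.1 and 38.9 CPM in NC and 42.7, 38.8 and 40.4 CPM in siPUM2. The groups overlapped, and the log2 fold change of 0.07 ± 0.0552 (SE) was not called (adjusted p = 0.358, edgeR). Its 95% interval, from -2.77% to 13.8%, includes part of the range of the Lifr interval. Whether these neighbours differ in their change was not tested.

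The genes whose pattern over the 6 libraries was most like that of Lifr were Pigx, Stx2, Gnpnat1, Ate1 and Ptpra. The measure was the root mean square difference of log2(CPM + 1) deviations from each gene's own NC mean, among 11632 genes with a mean of at least 1 CPM. It came to 0.0196 for Pigx and 0.0246 for Ptpra, the fifth.

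Jak1, on chromosome 5, encodes the main kinase bound to gp130. Its level was 130, 125 and 129 CPM in NC and 135, 132 and 133 CPM in siPUM2. All siPUM2 libraries stood above all NC libraries, yet the log2 fold change of 0.06 ± 0.0278 (SE) was not called (adjusted p = 0.122, edgeR), and its interval reached at most a rise of 8.33%. The annotation of GRCr8 has the protein-coding gene Raver2 and a small nuclear RNA overlapping Jak1. Jak2, on chromosome 1, another kinase of these receptors, was the steadiest member in NC. It stood at 29.4, 28.9 and 29.3 CPM in NC and at 28.1, 29.0 and 28.8 CPM in siPUM2, with a log2 fold change of -0.03 ± 0.0546 (SE, adjusted p = 0.735, edgeR). The groups overlapped.

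Stat3, on chromosome 10, encodes the transcription factor that these receptors activate by phosphorylation, which RNA levels do not measure. Its level was 151, 142 and 150 CPM in NC and 159, 153 and 156 CPM in siPUM2. The groups did not overlap, but siPUM2 2 lay only just above NC 1. The mean went from 148 ± 4.85 to 156 ± 2.89 CPM, 1.06-fold, with a log2 fold change of 0.08 ± 0.0286 (SE) and an adjusted p of 0.0425 (edgeR). The call was lost under 12 of 17 alternatives, among them DESeq2 (adjusted p = 0.109) and limma voom (0.0560). It was also lost without NC 2 (0.239), without siPUM2 1 (0.192) and without siPUM2 3 (0.108), so the call for Stat3 was not firm.

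Socs3, also on chromosome 10, encodes the suppressor that binds gp130 and shuts down the Janus kinases. The NC libraries gave 34.4, 31.01 and 34.6 CPM and the siPUM2 libraries 26.4, 26.0 and 24.7 CPM, from 720 to 1060 counts a library. Every siPUM2 library lay below every NC library. The mean fell from 33.3 ± 2.005 to 25.7 ± 0.864 CPM (SD, n = 3 each), 1.30-fold, with a log2 fold change of -0.37 ± 0.0588 (SE) and an adjusted p of 1.46e-05 (edgeR). Of the 1731 genes called lower, 11.03% fell by more. The genes most like Socs3 by the same measure were Bambi, Jrk, Glce, Hsd11b1 and Syt12, at 0.0131 for Bambi and 0.0384 for Syt12, the fifth. Bambi had a larger fall in the edgeR fit (log2 fold change -0.52), so likeness by this measure is not equality of fold change.

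**Figure D2:**
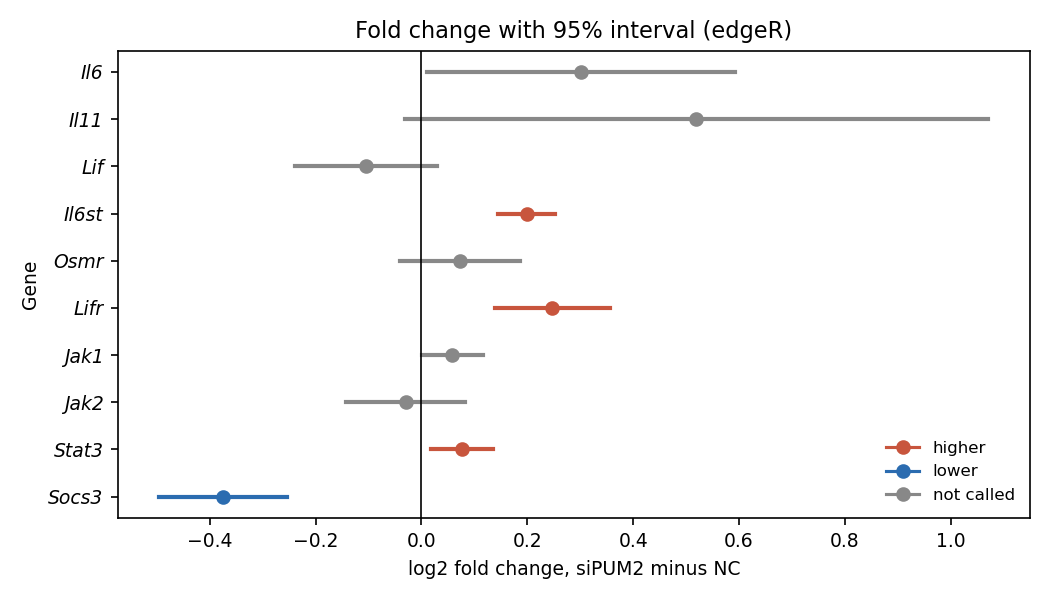
Log2 fold change of each gene, siPUM2 minus NC (x axis), as a point with its 95% interval from edgeR as a line, coloured by call. Il6st (0.20), Lifr (0.25) and Stat3 (0.08) lie above 0 and Socs3 (-0.37) below, while the interval of Il11 spans -0.03 to 1.07.

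By range rather than by test, 6 of the 10 members did not overlap between the groups (Il11, Il6st, Lifr, Jak1 and Stat3 higher, Socs3 lower), beside 39.9% of all genes tested, 20.7% higher and 19.2% lower. In bulk RNA a change in the share of cells that express a gene and a change in its level per cell cannot be told apart. The summed level of 9 cardiomyocyte markers, mostly Tnnt2, also differed, at 306 to 363 CPM in NC and 469 to 522 CPM in siPUM2. Of the 5 tested only Tnnt2 was called, 1.59-fold higher (adjusted p = 2.86e-12, edgeR). Nkx2-5, Gata4 and Myh6 had log2 fold changes of -0.14, -0.12 and -0.58, and Nppb 0.34. The median of the 5 was -0.12. For 5 skeletal myoblast markers, mostly Cdh15, the sum was 342 to 347 in NC against 358 to 383 CPM in siPUM2. Within that list Cdh15 and Des rose (adjusted p = 1.73e-06 and 0.0367, edgeR). Myog, singled out after its values were seen, went the other way, 2.18-fold lower at 20.1 ± 4.23 CPM in NC and 9.23 ± 0.445 CPM in siPUM2 (adjusted p = 1.86e-09, edgeR), and the untested Chrna1 was at 0.228 to 0.431 CPM in NC and 0.103 to 0.108 CPM in siPUM2. The summed level of 7 fibroblast markers, mostly collagen I, was 17591 to 17723 against 17154 to 17581 CPM. Of the 4 tested, Thy1 rose 1.24-fold (adjusted p = 9.02e-11, edgeR) and Col1a2 was not called. S100a4 fell 1.14-fold and Col1a1 1.06-fold (adjusted p = 8.16e-05 and 0.0116, edgeR). Calls of these fibroblast markers under the alternatives are not given here. The part of all these markers in the changes of Il6st, Lifr, Stat3 and Socs3 was not tested.

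Levels of different genes can be compared only per length, for which the deposited FPKM values, which the authors divided by gene length as well as by depth, were used. In NC the order by mean FPKM was Il6st at 47.7, Stat3 at 29.5, Jak1 at 20.2, Socs3 at 10.4, Osmr at 6.80, Jak2 at 6.60, Lif at 3.69, Il6 at 3.47, Lifr at 2.96 and Il11 at 0.293. Neighbours in this order whose NC ranges overlapped were Osmr with Jak2, Lif with Il6, and Il6 with Lifr. Il6st stood above Osmr and Lifr, the chains that gp130 pairs with, in every library. In siPUM2 the first 6 places were the same, with Socs3 at 7.96 FPKM and Osmr at 7.13 FPKM now close. The next places were Il6 at 4.28, Lifr at 3.50 and Lif at 3.43 FPKM, and of these the ranges of Lifr and Lif overlapped. Il11 was again last, at 0.420 FPKM.

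**Figure D3:**
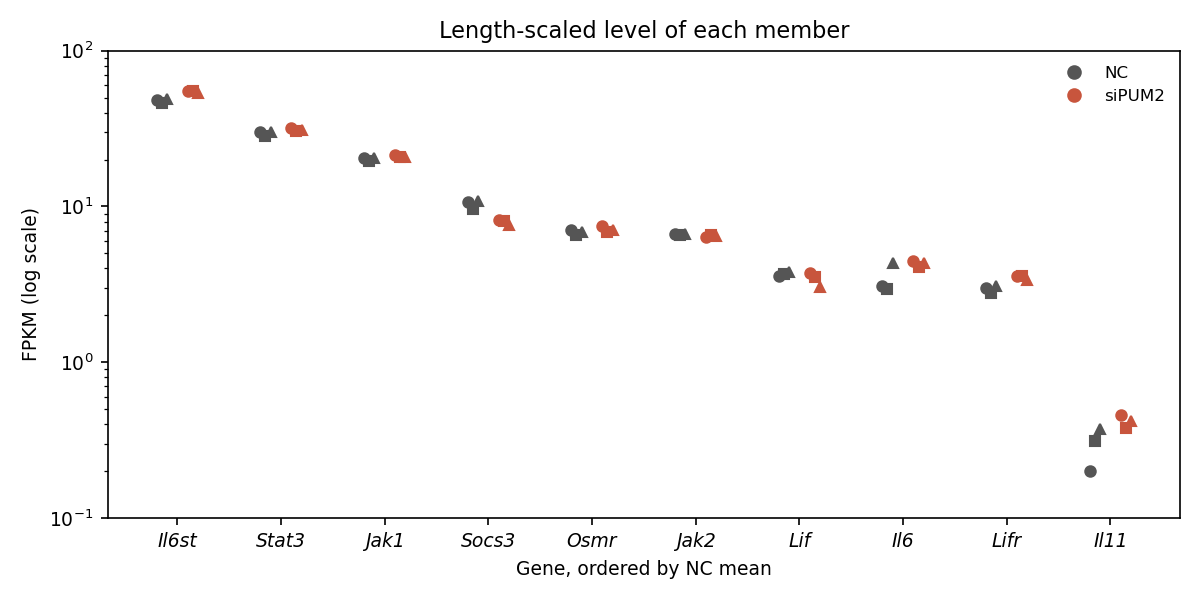
FPKM of each gene in each library on a log scale (y axis), with genes ordered by their NC mean, NC in grey and siPUM2 in red. The levels run from 55.3 at the highest for Il6st to 0.20 at the lowest for Il11, and Lif, Il6 and Lifr lie close together between 2.80 and 4.46.

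Other ligands and receptors of the family were mostly not called, with 1 exception. Of 15 such genes listed, 9 were measured and 7 tested. Of these 1 rose (beside 15.1% of all genes), none fell (beside 13.3%) and 6 were not called (median log2 fold change -0.01). The one that rose was Ctf1 on chromosome 1, which encodes cardiotrophin 1, a cytokine that acts through the LIF receptor and gp130 and is known for cardiomyocyte growth. It stood at 40.3, 37.3 and 38.5 CPM in NC and at 48.5, 46.6 and 50.7 CPM in siPUM2, with no overlap. Its mean rose 1.26-fold, with a log2 fold change of 0.33 ± 0.0522 (SE) and an adjusted p of 1.69e-05 (edgeR). The annotation of GRCr8 has Ctf2, a related gene at 0.02 CPM in each group here, overlapping Ctf1. The receptors of interleukin 6 and interleukin 11, Il6r and Il11ra1, were at 4.51 and 7.75 CPM in NC and 4.38 and 7.94 CPM in siPUM2 (adjusted p = 0.876 and 0.840, edgeR). Clcf1, which encodes another cytokine of the family, was not called (log2 fold change -0.09, adjusted p = 0.295, edgeR). Osm, which encodes oncostatin M, and Cntfr were looked up by name but not matched to a single gene of the count table, so neither was tested.

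Among the other Janus kinases and STAT factors, 7 of 8 were tested. None rose (beside 15.1% of all genes) and only Jak3 fell (beside 13.3%). Jak3, a kinase known from lymphocyte cytokine receptors, went from 19.1 ± 0.396 to 15.8 ± 1.36 CPM, 1.21-fold lower (adjusted p = 0.00299, edgeR). This call was lost on log2(FPKM + 1) with no filter (adjusted p = 0.0649). Stat2 (log2 fold change 0.12, adjusted p = 0.0925) and Stat6 (-0.09, adjusted p = 0.211) were not called. Without NC 3 Stat2 was called (adjusted p = 0.0367). The list's median log2 fold change was -0.05.

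Of 17 inhibitors and phosphatases of the pathway tested, 1 rose (beside 15.1% of all genes), 1 fell (beside 13.3%) and 15 were not called. The list's median log2 fold change was -0.03. The one that fell was Socs5, another member of the SOCS family, at 106, 103 and 103 CPM in NC and 81.3, 76.4 and 79.7 CPM in siPUM2. That is a 1.32-fold fall with no overlap between the groups (adjusted p = 1.11e-10, edgeR). Pias3, which encodes an inhibitor of STAT3 in the nucleus, went from 24.1 ± 1.32 to 29.1 ± 1.67 CPM, 1.21-fold higher (adjusted p = 0.000886, edgeR). Socs1 (2.17 to 1.58 CPM, adjusted p = 0.1003) and the phosphatase gene Ptpn6 (1.14 to 0.763 CPM, adjusted p = 0.127) were not called. Of 17 alternatives, 1 called Socs1 and 2 called Ptpn6, whose groups did not overlap.

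Several adaptors and kinases bound to the receptors rose, and none of the genes for shedding enzymes was called. Of 13 genes of this list tested, 5 rose (beside 15.1% of all genes), none fell (beside 13.3%) and 8 were not called. The median log2 fold change was 0.14. The adaptor genes Shc1 (1.10-fold, 154 ± 3.94 to 170 ± 3.47 CPM, adjusted p = 0.000207, edgeR), Gab1 (1.17-fold) and Gab2 (1.20-fold), which link receptors to the ERK pathway, rose. Stam2 (1.13-fold) and the kinase gene Tec (1.17-fold, named after its values were seen) also passed the threshold, but not firmly. The shedding protease genes Adam10 (log2 fold change 0.11, adjusted p = 0.221) and Adam17 (-0.15, adjusted p = 0.0610) and their partner Rhbdf2 (0.14, adjusted p = 0.420) were not called (edgeR). Gab1 lost its call without siPUM2 1 (adjusted p = 0.0727) and in all 3 fits on FPKM (0.0545 to 0.109), and Gab2 on log2(FPKM + 1) with no filter (0.0711). Stam2 lost it without NC 1, NC 2, siPUM2 2 or siPUM2 3 (adjusted p 0.0750 to 0.191), and Tec without NC 2, NC 3, siPUM2 1 or siPUM2 2 (0.0558 to 0.287).

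Genes listed here as induced by cytokines of this family through STAT3 moved in both directions. Of 46 listed, 41 were measured and 31 tested. Of these 3 rose (beside 15.1% of all genes), 7 fell (beside 13.3%) and 21 were not called (median log2 fold change -0.04). Egr1, an immediate early transcription factor, went from 34.4 ± 1.60 to 23.4 ± 2.25 CPM, 1.47-fold lower (adjusted p = 9.98e-08, edgeR). Junb, an AP-1 subunit, fell 1.17-fold and Birc5, which encodes survivin, 1.27-fold. Myc, named after its values were seen, fell 1.25-fold from 36.6 ± 2.74 to 29.2 ± 2.38 CPM, a call lost on log2(FPKM + 1) with no filter (adjusted p = 0.0536). The other three that fell, also named after their values were seen, were Ccnd1 (cyclin D1, 1.08-fold, adjusted p = 0.000561), the metalloproteinase inhibitor gene Timp1 (1.07-fold, adjusted p = 0.0113) and the survival gene Mcl1 (1.06-fold, adjusted p = 0.0347, edgeR). Timp1 lost its call without siPUM2 1 (adjusted p = 0.0895) and on log2(FPKM + 1) with no filter (0.0606). Mcl1 lost it under 11 of 17 alternatives, among them the fits without NC 2, NC 3, siPUM2 1 or siPUM2 2 (0.0589 to 0.162). Those that rose were the adhesion gene Icam1 (1.17-fold, 74.8 ± 1.53 to 87.7 ± 1.47 CPM, adjusted p = 2.11e-06, edgeR), the survival gene Bcl2l1 (1.10-fold) and Tnfrsf12a (1.06-fold). Bcl2l1 and Tnfrsf12a were named after their values were seen, and Tnfrsf12a lost its call without NC 1 (adjusted p = 0.0575) or siPUM2 3 (0.0962), and on log2(FPKM + 1) with no filter (0.0628). Many of these genes also answer to other signals. Of the acute-phase genes of the list, Fgg was at 7.77 CPM in NC and 7.12 CPM in siPUM2 (adjusted p = 0.390, edgeR). Serpina3n averaged 0.425 and 0.478 CPM and Lbp 0.0437 and 0.0832 CPM, and Hamp, Fga, Fgb, A2m and Lcn2 averaged at most 0.0119 CPM in either group.

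**Figure D4:**
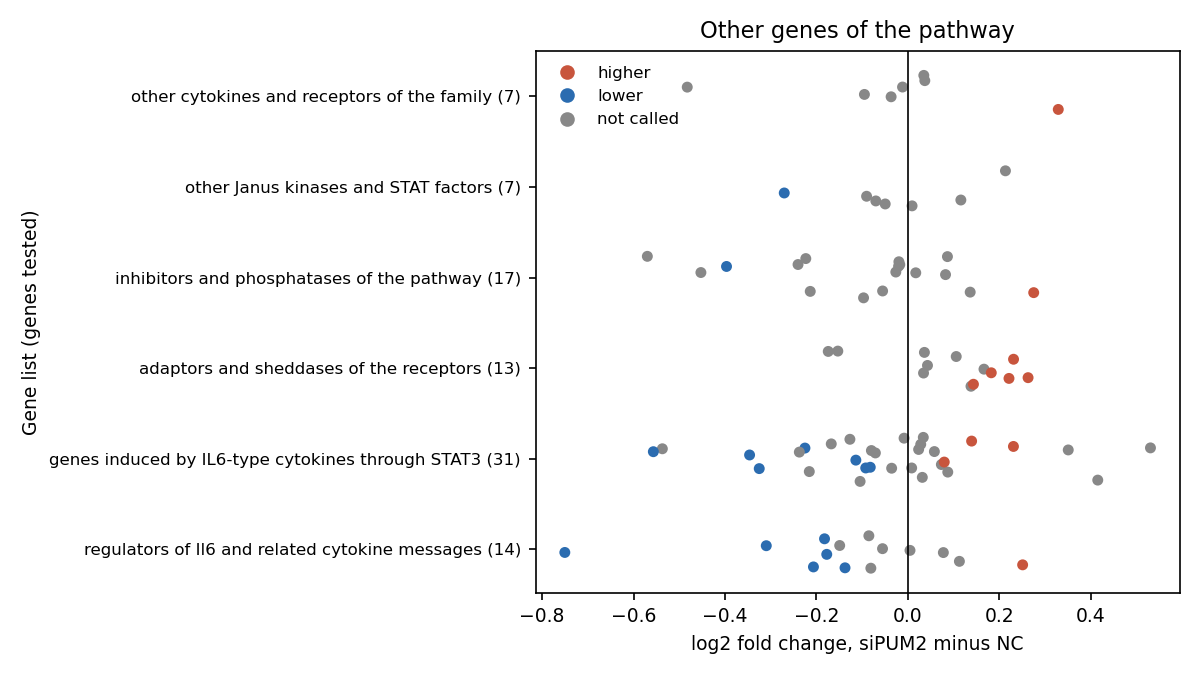
Log2 fold change, siPUM2 minus NC (x axis), of each tested gene of 6 lists (y axis, with the number tested; points are spread vertically for legibility), coloured by call. The list of adaptors and sheddases has 5 genes called higher, all adaptors or kinases, and none lower. Genes listed as induced through STAT3 have calls on both sides of 0.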

How the data were processed

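RNA-seq libraries of 3 NC and 3 siPUM2 samples were grouped by their titles. The authors deposited raw counts per gene and FPKM values, per the file headers. HISAT2, DESeq2 and the build mRatBN7.2 are named in the submitters' processing notes. Their versions, the counting tool and the gene models were not stated there. Counts were tested with edgeR 4.0.16 (R 4.3.3), TMM scaling, filterByExpr (6840 genes removed, 12985 tested) and glmQLFTest, with the group as the only term. The test was tried on simulated data with known changes. SE and 95% intervals come from the F statistic. Alternatives were other scalings, filters and thresholds, DESeq2 1.42.0, limma 3.58.1 (voom, and log2 of FPKM plus 1 or 0.1), the replicate block and leaving out each library. Replicates were not copies of each other (chi-square per degree of freedom 2.07 to 3.80 within groups). Members, lists and tests were chosen with earlier results of these data known. All 10 members were named, with up to 4 genes of lowest p per list, of which a few are not reported here. Of 115 list entries 102 were matched, through RefSeq names of GRCr8 where symbols were older.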

Additional observations from a re-analysis of the deposited data

How the results depend on the processing

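The fall of Socs3 and the rise of Il6st were called under all 17 alternatives run, with log2 fold changes of -0.42 to -0.34 and 0.18 to 0.21. The rise of Lifr was called under all but log2(FPKM + 1) with no filter (log2 fold change 0.19). That setting called 2246 genes in place of 3692 and 1 member higher in place of 3. Stat3 kept its direction but not its call under several settings. Its log2 fold change was 0.0747 with RLE factors, 0.0747 with DESeq2, 0.0672 with upper-quartile factors and 0.0778 with limma voom. It was 0.0770 with no filter on low counts. On log2(FPKM + 1) with or without the filter it was 0.0717, and on log2(FPKM + 0.1) 0.0738. The cause was not tested. Leaving out 1 library at a time gave log2 fold changes of 0.0501 to 0.0924 for Stat3 and 0.20 to 0.50 for Il6 (called without NC 3), with 3013 to 3538 genes called. For members not called, the same gave Il11 0.31 to 0.72, Lif -0.17 to -0.03, Osmr 0.0327 to 0.104 and Jak2 -0.0392 to -0.0195. It gave Il11ra1 -0.0691 to 0.105 and Il6r -0.125 to 0.0322, neither of them called under any. The labels do not tie a replicate number to a batch, and deviations of same-numbered libraries correlated at 0.0342, 0.0204 and 0.00270, so the numbers were not taken as pairs. Not every library correlated best with its own number. With the replicate block 3731 genes were called, and of the members only Stat3 lost its call (log2 fold change 0.0773, adjusted p = 0.0514). Il11, at 17 to 40 counts a library, is limited most by depth.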

Other observations

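Regulators of cytokine messages, the RNA-binding proteins and NF-kB factors that set how long the Il6 message lasts or how much of it is made, moved in both directions. Of 14 tested, 6 fell (beside 13.3% of all genes), 1 rose (beside 15.1%) and 7 were not called, so most of the calls were lower. The median log2 fold change was -0.11 beside 0.001 for all genes tested. Zfp36l2, which encodes a protein that promotes decay of messages with AU-rich elements, fell 1.24-fold from 487 ± 9.21 to 393 ± 4.26 CPM (SD, n = 3 each, adjusted p = 1.40e-10, edgeR). Hnrnpd (1.15-fold) and Khsrp (1.13-fold), also known for the decay of such messages, fell, as did Elavl1 (1.10-fold), which is known to stabilise them. Arid5a, which encodes a protein known to stabilise the Il6 message, went from 3.58 ± 0.206 to 2.12 ± 0.467 CPM, 1.68-fold lower (adjusted p = 0.00132, edgeR). The one that rose was Rc3h2, which encodes Roquin 2, a protein that promotes decay of cytokine messages (1.19-fold, adjusted p = 0.000997, edgeR). Khsrp and Rc3h2 lost their calls on log2(FPKM + 1) with no filter (adjusted p = 0.0775 and 0.0592). The NF-kB factor gene Nfkb1 also fell (log2 fold change -0.18, adjusted p = 0.00970, edgeR), and its calls under the alternatives are not given here. Arid5a, Rc3h2 and Nfkb1 were named after their values were seen. The list holds proteins that act in opposite directions on the same message. Il6 itself was not called, with a 95% interval from a rise of 0.763% to one of 50.7%. Whether the changes of these regulators bear on Il6 was not tested.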
